A study of Mus musculus with 14 samples.

Results

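The 10 genes described here encode proteins of the lipid droplet, namely the perilipins Plin1, Plin2, Plin3, Plin4 and Plin5, the CIDE proteins Cidea, Cideb and Cidec, and the droplet assembly proteins Fitm2 and Bscl2. They were taken by their symbols, with earlier results of these data known. All 10 symbols were matched to identifiers among the 21853 genes measured, and none of them shared its symbol with another gene.

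A lipid droplet is a store of triglycerides and cholesteryl esters that is wrapped in a single layer of phospholipids. Perilipins coat that surface and control the access of lipases: perilipin 1 is the main coat of the large droplet of fat cells, perilipins 2 and 3 are found in most tissues, perilipin 4 coats small new droplets of fat cells, and perilipin 5 links droplets to mitochondria in tissues that burn fat. CIDE proteins pass lipid from a smaller droplet to a larger neighbour, whereas FIT2 (Fitm2) and seipin (Bscl2) act in the endoplasmic reticulum where droplets bud. In the ovary, luteal and interstitial cells keep cholesteryl esters in droplets as the substrate of steroid hormones, and the uterus and ovary both lie against fat pads.

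Ovaries and uteruses of 28-week-old female C57BL/6J mice were profiled by stranded, rRNA-depleted RNA-seq in order to ask how gene expression in aged reproductive organs differs after treatment. The 3 mice of the OC (old control) group received normal saline, and the 4 mice of the OT (old treatment) group received conditioned medium of human amnion-derived mesenchymal stem cells (AMSC-CM) through the tail vein, 6 times with 4 days between injections and at a dose of 1 µL per g. The medium came from cells of 3 donors. Mice of both groups had first been given pregnant mare serum gonadotropin and, 48 h later, human chorionic gonadotropin, at 10 IU each, so every library comes from a gonadotropin-primed animal. Both organs of each mouse were sequenced, which gave 14 libraries of 7 mice in 4 groups. The libraries are named by group and mouse number, and an OC mouse and an OT mouse with the same number are different animals. RNA came from tissue and not from sorted cells, so a value is an average over cell types.

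Expression is given in FPKM, a fragment count divided by gene length and by library size, so the depth of the libraries is unknown. Total FPKM ranged from 374816 to 397644 in the ovary and from 425875 to 577494 in the uterus, where OT1 had the highest total. On average over the libraries, marker genes followed the tissue labels. All 10 steroidogenic and luteal genes and all 8 granulosa cell and oocyte genes were higher in the ovary, while 7 of 8 uterine genes, 6 of 6 smooth muscle genes and 2 of 5 genes of simple epithelium were higher in the uterus. Some of these genes varied widely among the ovaries. The uterine gene Hoxa10 was at 3.92, 53.4 and 27.7 FPKM in the ovaries of OC1 to OC3. It was at 0.572, 6.09, 48.9 and 23.4 FPKM in those of OT1 to OT4. The smooth muscle gene Actg2 ranged from 91.2 to 400 FPKM in ovaries. The cause was not tested. None of the 5 endothelial genes differed by 2-fold or more between the tissues or was called between OC and OT. Stratified epithelium genes, such as the keratin Krt5, were called higher in the OT uterus for 5 of 5, against 2.23% of all tested genes. Their summed level was 2.39 to 11.1 FPKM in OC and 42.1 to 737 FPKM in OT. Macrophage genes were called for none of 8 in the ovary and 1 of 8 in the uterus, with a median log2 difference of 0.54 in both.

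In mm10, Plin1 lies at chr7:79720218-79732903, Plin2 at chr4:86648386-86670060, Cidec at chr6:113424634-113435760, Cideb at chr14:55754050-55758458 and Fitm2 at chr2:163466379-163472629, all on the minus strand. Bscl2 lies at chr19:8837467-8848683 on the plus strand, and Cidea is on the plus strand of chromosome 18. The other 3 perilipin genes share a stretch of chromosome 17 and its minus strand, with Plin4 at chr17:56100591-56109803, Plin5 at chr17:56111601-56117596 and Plin3 at chr17:56277476-56292873. Exons of Plin4, Cideb, Bscl2 and Fitm2 overlap exons of a gene on the opposite strand (Hdgfl2, Nop9, Gng3 and 2310001K24Rik). The libraries were stranded, and the study quantified them with a strand-specific option, which is meant to separate such genes. Bscl2 also overlaps AC129217.1 on its own strand, so that the assignment of fragments to Bscl2 may be uncertain.

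Promoters are shown for Plin1 and Cidec, which had the largest called differences between OT and OC, and for the neighbours Plin4 and Plin5, which had the largest called differences between the tissues. Each run is the 250 bases before a RefSeq start of GRCm38.p6, read 5′ to 3′ on the minus strand. These starts lie inside the gene spans given above for Plin1, Plin4 and Plin5, and at the gene end for Cidec. Capitals mark, on either strand, the TATA box word TATAA, the CCAAT box, the GC box word GGGCGG, the E-box word CACGTG or the nuclear receptor word AGGTCA. The direct repeat of AGGTCA with any base between the copies, which is the form bound by PPAR receptors, was also searched and contains the shorter word.

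Plin1 (chr7:79732777-79733026): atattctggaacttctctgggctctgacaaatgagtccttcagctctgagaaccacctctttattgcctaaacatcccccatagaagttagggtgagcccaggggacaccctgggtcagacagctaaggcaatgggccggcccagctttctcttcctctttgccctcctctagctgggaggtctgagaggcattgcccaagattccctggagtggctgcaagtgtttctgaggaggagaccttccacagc
Cidec (chr6:113435761-113436010, the first of its 2 starts): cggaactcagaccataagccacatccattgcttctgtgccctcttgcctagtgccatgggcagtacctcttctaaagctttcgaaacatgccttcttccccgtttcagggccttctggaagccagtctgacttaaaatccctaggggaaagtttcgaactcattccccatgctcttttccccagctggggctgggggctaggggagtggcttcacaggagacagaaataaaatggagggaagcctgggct
Plin4 (chr17:56109783-56110032): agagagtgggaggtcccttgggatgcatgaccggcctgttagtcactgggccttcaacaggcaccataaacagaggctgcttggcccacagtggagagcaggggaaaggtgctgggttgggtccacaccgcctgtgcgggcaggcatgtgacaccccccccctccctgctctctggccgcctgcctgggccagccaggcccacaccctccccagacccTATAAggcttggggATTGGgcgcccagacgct
Plin5 (chr17:56117549-56117798, the first of its 2 starts): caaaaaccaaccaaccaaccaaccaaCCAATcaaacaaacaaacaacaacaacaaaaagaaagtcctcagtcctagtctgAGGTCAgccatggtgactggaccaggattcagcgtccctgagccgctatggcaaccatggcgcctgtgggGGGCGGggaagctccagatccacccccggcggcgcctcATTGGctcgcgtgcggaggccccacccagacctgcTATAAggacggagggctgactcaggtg

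Counted back from the start, the Plin4 promoter holds TATAA at bases 32 to 28 and CCAAT in reverse at bases 18 to 14. The Plin5 promoter holds TATAA at bases 27 to 23, CCAAT at bases 224 to 220 and in reverse at bases 62 to 58, GGGCGG at bases 100 to 95 and AGGTCA at bases 170 to 165. These letters occur nowhere in the Plin1 and Cidec windows. Of all 32851 promoters, 22.8% hold the TATA box word, 33.8% the CCAAT box, 32.7% the GC box word, 6.02% the E-box word, 14.02% the nuclear receptor word and 0.0335% its direct repeat. A promoter was given for 9 of the 10 genes. A match of letters is a description of the sequence and not of binding.

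In the OT uterus, Plin1, Plin4 and Cidec were higher than in the OC uterus by 6.72-fold to 19.3-fold, and each OT library lay above each OC library for these genes. Perilipins 2 and 3 stayed within 2-fold on average, and among the uteruses Plin5 and Cidea were high in OT1 alone. A gene was called at the cutoffs of the study, an absolute log2 difference of at least 1 with an unadjusted p of at most 0.05 by limma on log2(FPKM + 0.1). On that scale 3 of the 10 genes were called higher and 0 lower in the OT uterus, where 2.23% of 14151 tested genes were called higher and 0.664% lower. After Benjamini-Hochberg adjustment of the limma p over all tested genes, 0 of the 10 and 0% of all genes were under 0.05, although 1160 genes were under 0.05 unadjusted. The median log2 difference was 1.35 over the 10 genes and 0.01 over all tested genes. It rests in part on Plin5 and Cidea, which reached the 0.5 FPKM needed for testing through the OT1 uterus alone. Without OT1, 8 of the genes were tested, with a median of 0.39 against 0.01 over all genes, and the same 3 were called.

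**Figure D1:**
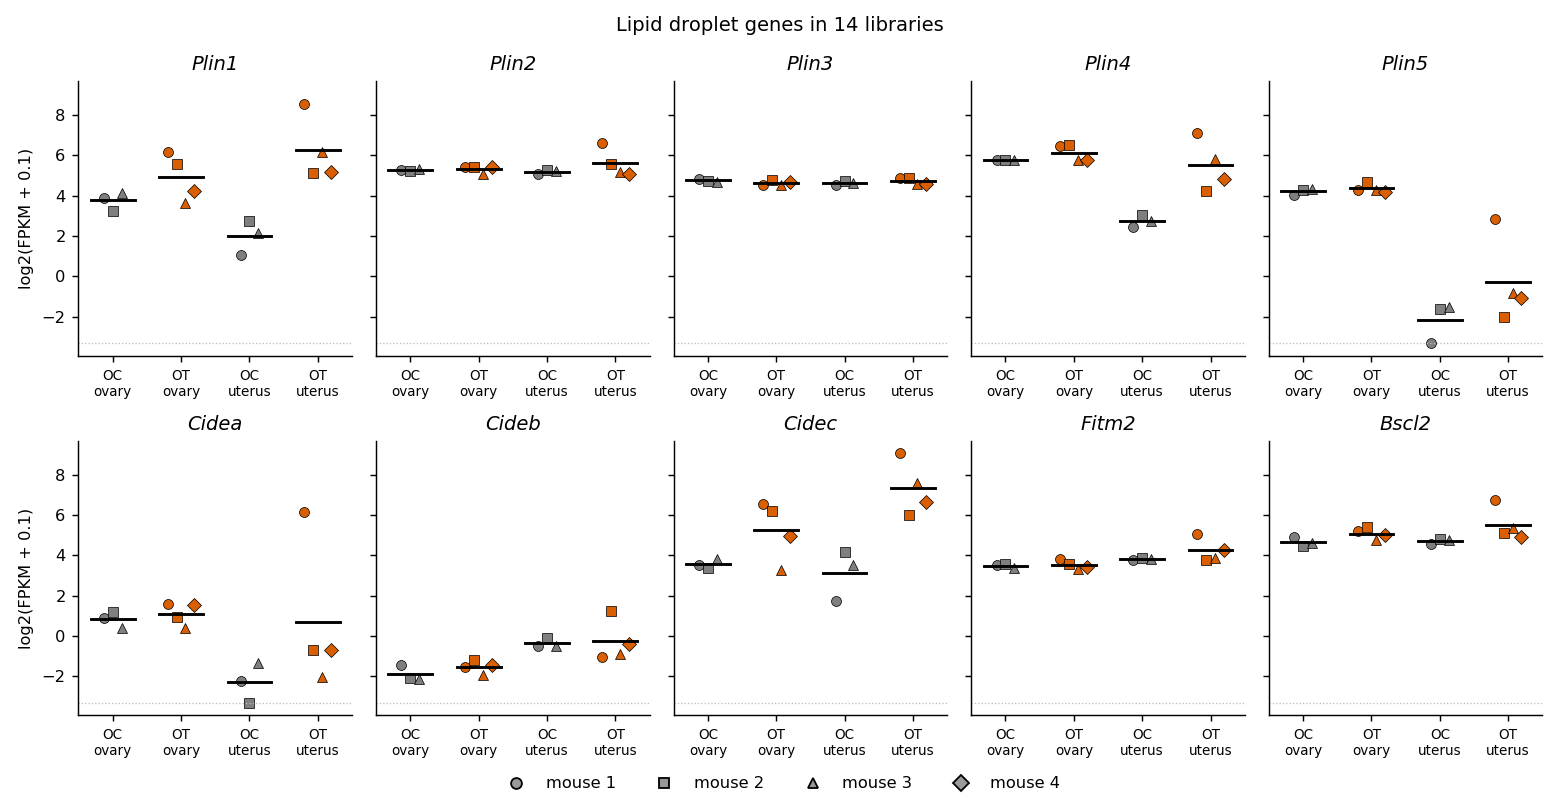
Expression of the 10 lipid droplet genes in all 14 libraries, as log2(FPKM + 0.1) on the vertical axis, with OC in grey, OT in orange, a symbol for each mouse number and a bar at the group mean. The dotted line is the value of a gene listed at 0 FPKM, and the OT uterus sits above the OC uterus without overlap for Plin1, Plin4, Cidec and Bscl2.

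Plin1, the coat of the fat cell droplet, was at 1.98, 6.63 and 4.35 FPKM in the uteruses of OC1 to OC3 and at 370.1, 35.1, 72.7 and 36.2 FPKM in those of OT1 to OT4. The groups did not overlap, and OT1 was far above the other OT uteruses. The means were 4.32 ± 2.32 FPKM (SD, n = 3) and 128.5 ± 162 FPKM (SD, n = 4). The log2 difference was 4.27 ± 0.82 (SE), a 19.3-fold difference with a 95% interval of 2.39 to 6.15 on the log2 scale and an adjusted p of 0.357 by limma. Plin4, which coats small droplets of fat cells, was at 5.38, 8.25 and 6.72 FPKM in OC1 to OC3 and at 140.3, 18.7, 57.3 and 28.4 FPKM in OT1 to OT4. Here too OT1 was highest and OT2 lowest among OT, with no overlap between the groups. Plin4 differed by 2.75 ± 0.61 (SE) on the log2 scale, a 6.72-fold difference with an adjusted p of 0.396 by limma. Without OT1, the log2 differences of Plin1 and Plin4 were 3.51 and 2.21, and both genes were still called. In an alternative, 1 fit of both tissues, both had an adjusted p of 0.0385 by limma. The share of all genes under 0.05 in that fit is not given here. It pools the spread of the 4 groups, which differs, so it can understate that of OT uteruses. On the log2 scale the SD of Plin4 was 0.019 in OC and 0.40 in OT ovaries, and 0.30 in OC and 1.27 in OT uteruses. For Plin1 the SDs were 0.46, 1.16, 0.86 and 1.59 in the same order.

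Plin2 and Plin3 are the widely expressed perilipins, and their levels in the uterus were close in both groups. Plin2 was at 33.8, 38.6 and 37.4 FPKM in OC1 to OC3 and at 97.6, 47.5, 36.2 and 33.2 FPKM in OT1 to OT4. The OT libraries spanned the OC range, with OT1 far above and OT4 below it. Plin2 had a log2 difference of 0.41 with a 95% interval of -0.39 to 1.20, and it was 0.07 without OT1. Plin3 lay between 23.1 and 26.2 FPKM in OC and between 23.5 and 29.4 FPKM in OT, and its log2 difference had a 95% interval of -0.22 to 0.41. Neither gene was called. Plin5, the perilipin of fat-burning tissues, was listed at 0 in the OC1 uterus and stood at 0.227 and 0.248 FPKM in OC2 and OC3. It reached 7.11 FPKM in OT1 and was between 0.147 and 0.460 FPKM in the other OT uteruses. Its mean over the uteruses without OT1 was 0.244 FPKM, under the 0.5 FPKM that a gene needed for testing, so that it was tested through OT1. It was not called (log2 difference 1.89 ± 1.16, SE), except in the 1 fit of both tissues.

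Among the CIDE genes, Cidec encodes the protein that enlarges the droplet of white fat cells. It was at 3.23, 17.7 and 11.3 FPKM in the uteruses of OC1 to OC3 and at 535.9, 64.9, 193.5 and 98.1 FPKM in those of OT1 to OT4. The lowest OT library was well above the highest OC library. The means were 10.7 ± 7.23 FPKM (SD, n = 3) and 223 ± 216 FPKM (SD, n = 4). Cidec differed by 4.19 ± 0.79 (SE) on the log2 scale, an 18.3-fold difference with an adjusted p of 0.357 by limma, and by 3.61 without OT1. Among the 14151 tested genes, Cidec ranked 23rd and Plin1 28th by p.

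Cidea, which is known from brown fat, was at 0.116, 0 and 0.291 FPKM in OC1 to OC3 and at 70.5, 0.512, 0.144 and 0.518 FPKM in OT1 to OT4. The value of OT1 stood alone, and the other OT libraries overlapped with OC. Its mean without OT1 was 0.263 FPKM, so it too was tested through that library, and it was not called (log2 difference 2.97 ± 1.80, SE). Cideb, the CIDE protein of liver and gut, was low throughout, at 0.601 to 0.849 FPKM in OC and 0.383 to 2.29 FPKM in OT. The highest value was that of OT2, and the groups overlapped.

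Of the assembly genes, Bscl2 was at 23.1, 27.9 and 27.0 FPKM in the uteruses of OC1 to OC3 and at 107.2, 34.2, 40.3 and 29.9 FPKM in those of OT1 to OT4. The groups did not overlap, although OT4 was near the top of OC. Its log2 difference of 0.82 ± 0.41 (SE) was under the cutoff of 1, and it was 0.41 without OT1. Without OT4 it was 1.02 and passed the cutoffs, and this held with the mouse number as a block in a fit that also leaves out OT4. Fitm2 was at 13.5 to 14.6 FPKM in OC and at 32.7, 13.6, 14.6 and 19.3 FPKM in OT1 to OT4, and the groups overlapped. In all, 4 of the 10 genes had every OT uterus above every OC uterus, against 6.46% of all tested genes, and 0 had every OT uterus below, against 5.48%.

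Genes of fat cells were higher in the OT uterus as well. A list of 20 adipocyte genes, which holds none of the 10 lipid droplet genes, was called higher for 20 of 20. The median log2 difference was 3.61, and without OT1 18 of 20 were called, with a median of 2.88. Of all tested genes, 2.23% were called higher. The list was chosen with earlier results of these data known. Many of its genes, such as Adipoq, Lep and Cfd, were reported by the study as higher in both organs. The count is therefore no independent support. The summed level of the list was 166 to 475 FPKM in OC uteruses and 2050 to 17562 FPKM in OT uteruses. None of its genes was at 0 in a group. Adipoq, the gene of the fat cell hormone adiponectin, was at 8.40 to 28.6 FPKM in OC and 117 to 777 FPKM in OT uteruses. In bulk tissue, fewer cells of a type and less RNA per cell cannot be told apart. The part of fat cells in the differences of Plin1, Plin4 and Cidec was not tested.

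The level of each lipid droplet gene was also set against the mean log2 level of the 20 adipocyte genes in the same library. This mean was 1.61 to 3.02 in OC and 4.62 to 7.73 in OT uteruses. Relative to it, Plin1 was higher in OT than in OC uteruses by 0.95 (pooled SD 0.22) and Cidec by 0.87 (pooled SD 0.37), on the log2 scale. For Plin4 the same difference was -0.57 (pooled SD 0.37), and for Plin2, Plin3, Fitm2 and Bscl2 it was between -3.23 and -2.504. The 20 adipocyte genes themselves had log2 differences of 1.04 to 4.84 between OT and OC uteruses. Plin1 (4.27) and Cidec (4.19) lay inside that range. The levels relative to the list mean are descriptions and were not tested.

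**Figure D2:**
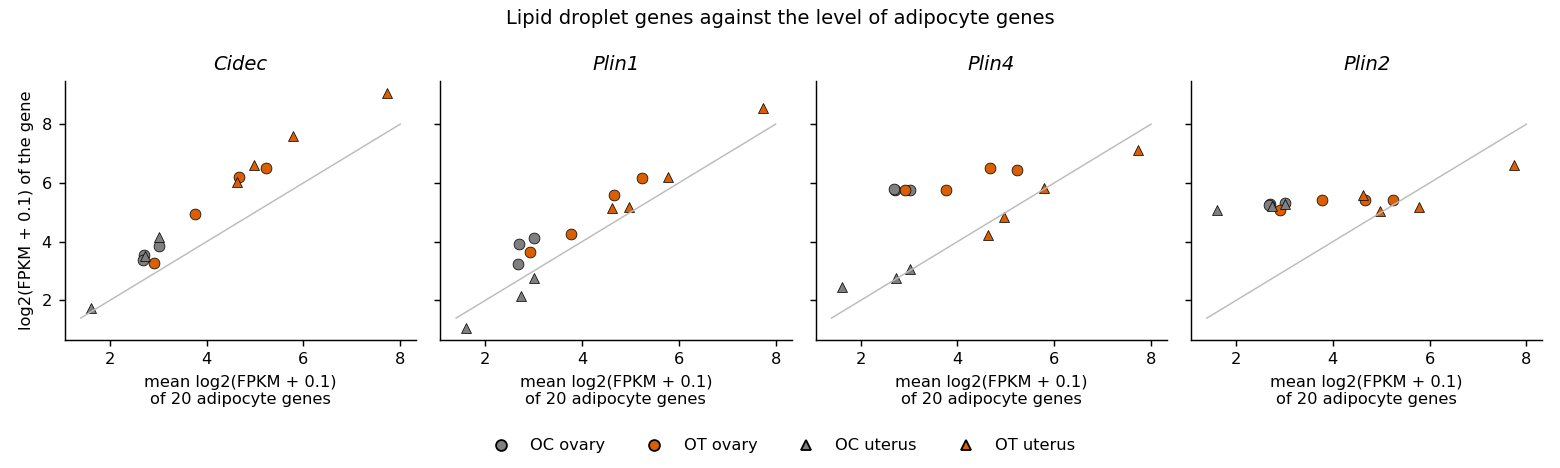
Level of Cidec, Plin1, Plin4 and Plin2 in each of the 14 libraries (vertical axis) against the mean of the 20 adipocyte genes in that library (horizontal axis), both as log2(FPKM + 0.1), with a grey line where the values are equal. Cidec and Plin1 lie along a rising line in both tissues, Plin4 in the ovary is near 5.76 until the list reaches its highest levels, and Plin2 changes little.

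A list of 10 brown adipocyte genes set the OT1 uterus apart, with a summed level of 674 FPKM against 23.1 to 50.4 FPKM in the other uterus libraries. Ucp1, the uncoupling protein of brown fat, was at 209.9 FPKM in the OT1 uterus, at 0.112 FPKM in the OT3 uterus and listed at 0 in all others. Cox8b and Cox7a1, mitochondrial subunits of brown fat, were at 339.7 and 72.9 FPKM there, and Zic1, another gene of the list, was listed at 0 in every library. Not every gene of the list was high in OT1. Dio2, the deiodinase that activates thyroid hormone, was at 28.6 to 39.5 FPKM in OC uteruses and at 13.1, 11.3, 13.4 and 30.4 FPKM in OT1 to OT4, and Prdm16, a regulator of brown fat identity, was at 1.71 FPKM in OT1 and 0.778 to 1.96 FPKM in the other uteruses. Of the 9 list genes tested in the uterus, Ebf2 was called higher (log2 difference 1.27 ± 0.53, SE) and Dio2 lower (-1.17 ± 0.33, SE). Ucp1, Elovl3 and Otop1 were tested through OT1 alone, and without OT1 6 were tested, of which Dio2 was called lower and none higher. None of the 6 list genes tested in the ovary was called. The Cidea value of 70.5 FPKM and the Plin5 value of 7.11 FPKM belong to the same OT1 uterus, and the part of brown fat in them was not tested.

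In the ovary, Cidec alone among the lipid droplet genes was called between OT and OC by limma, and its groups overlapped. The study, which used Cuffdiff in place of limma, listed both Plin1 and Cidec as higher in both organs of the OT group. Levels of Plin2, Plin3, Plin5 and Fitm2 were close in both groups. Cideb was not tested there because its mean was 0.219 FPKM. Of the 9 genes tested, 1 was called higher and 0 lower, where 0.368% of 14415 genes were called higher and 0.0832% lower. After adjustment of the limma p, 0 of the 9 and 0% of all genes were under 0.05, and 650 genes were under 0.05 unadjusted. The median log2 difference was 0.29 over the 9 genes and -0.01 over all genes. None of the 9 had every OT ovary above or below every OC ovary, as 2.78% and 3.13% of the tested genes had.

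Cidec was at 11.5, 10.2 and 14.2 FPKM in the ovaries of OC1 to OC3 and at 91.9, 73.3, 9.48 and 30.8 FPKM in those of OT1 to OT4. OT1, OT2 and OT4 were above all OC ovaries and OT3 was below them. The log2 difference was 1.65 ± 0.68 (SE), with a 95% interval of 0.10 to 3.20 and an adjusted p of 0.997 by limma. The p cutoff was missed when any of OC1, OC2, OC3, OT1, OT2 or OT4 was left out, with log2 differences of 1.22 to 1.78, as well as with no filter on low values and in the 1 fit of both tissues. Without OT3 the log2 difference was 2.31, with an adjusted p of 0.339.

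Plin1 in the ovary was also highest in OT1, OT2 and OT4, at 14.9, 9.41 and 17.5 FPKM in OC1 to OC3 and at 71.9, 47.8, 12.4 and 19.0 FPKM in OT1 to OT4. OT3 lay within the OC range, and OT4 just above it. Plin1 differed by 1.15 ± 0.56 (SE) on the log2 scale, which missed the p cutoff. Of the alternatives run, it was called without OT3 (1.57) and with the mouse number as a block, for which OT4 was left out (1.37). Without OT4 and with no block the value was also 1.37, and the gene was not called. Plin4 stood at 53.6, 54.9 and 53.6 FPKM in OC1 to OC3, with a SD of 0.724 FPKM, and at 87.0, 90.0, 54.4 and 54.5 FPKM in OT1 to OT4. OT3 and OT4 were inside the narrow OC range and OT1 and OT2 far above it. Its log2 difference of 0.36 ± 0.19 (SE) did not pass either cutoff. The adipocyte list, chosen with earlier results known, was called higher in the ovary for 12 of 20 genes, against 0.368% of all tested genes. The list had a median log2 difference of 1.46. Its mean log2 level was 2.69 to 3.01 in OC ovaries, 5.23, 4.67, 2.92 and 3.77 in OT1 to OT4, so that OT3 lay inside the OC range here as well. The part of fat cells in the differences of Cidec and Plin1 was not tested. Relative to the list mean, the OT minus OC difference was -0.20 for Plin1 (pooled SD 0.27) and 0.31 for Cidec (pooled SD 0.40).

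Bscl2 was at 30.3, 21.6 and 24.5 FPKM in OC1 to OC3 ovaries and at 36.3, 42.0, 26.9 and 31.5 FPKM in OT1 to OT4 ovaries. OT3 fell between the OC libraries and the other OT ovaries were above them. Bscl2 differed by 0.42 ± 0.16 (SE) on the log2 scale, past the p cutoff and under the fold cutoff. Plin2 was at 37.7 to 39.6 FPKM in OC and at 42.7, 43.1, 34.1 and 42.4 FPKM in OT1 to OT4, so that OT3 was lowest of all ovaries. Plin3 was at 25.8 to 28.5 FPKM in OC and 22.8 to 27.5 FPKM in OT, Plin5 at 16.3 to 20.3 and 18.1 to 25.9 FPKM, Fitm2 at 10.3 to 11.7 and 10.1 to 13.9 FPKM, and Cidea at 1.22 to 2.17 and 1.22 to 2.86 FPKM. The groups overlapped for all of these, and none was called. Their 95% intervals stayed within -0.46 and 1.04 on the log2 scale.

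**Figure D3:**
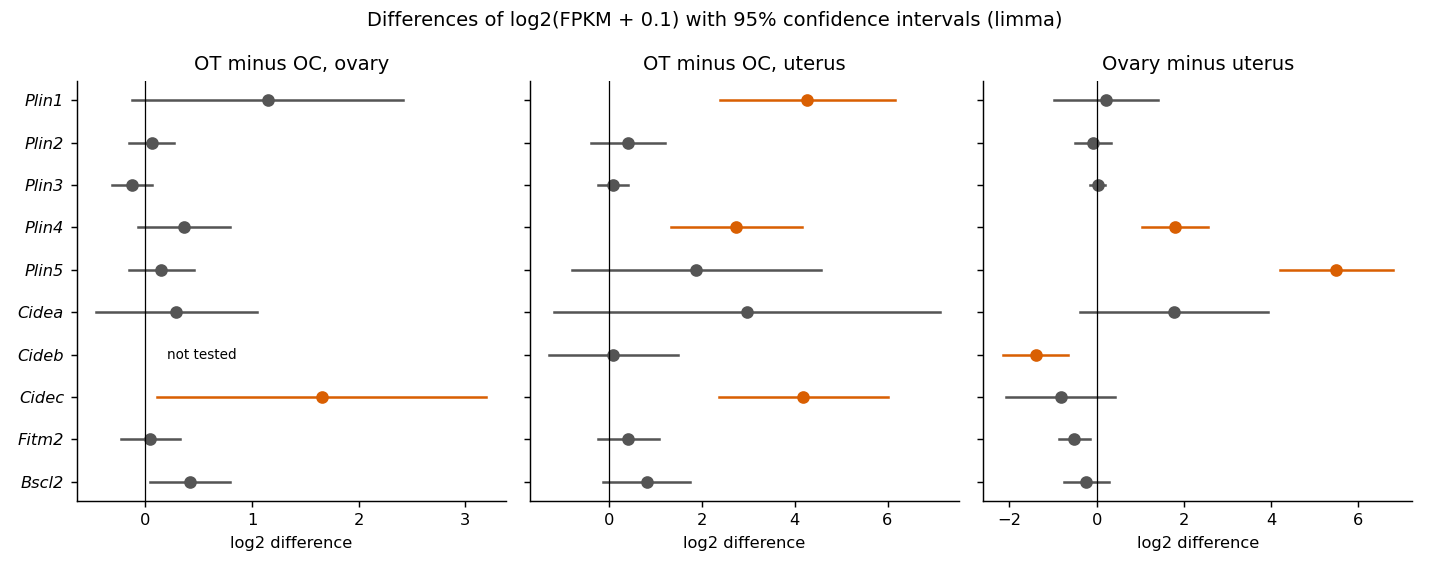
Differences of log2(FPKM + 0.1) for each gene, with 95% confidence intervals by limma as bars and called genes in orange, for OT minus OC in the ovary, OT minus OC in the uterus and ovary minus uterus. The horizontal scales differ between the panels. Called genes are Cidec in the ovary, Plin1, Plin4 and Cidec in the uterus, and Plin4, Plin5 and Cideb between the tissues.

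Whether the OT effect differed between the tissues was tested as an interaction in a fit of all 14 libraries. The difference of the log2 differences, uterus minus ovary, was 3.12 ± 1.10 (SE) for Plin1, 2.39 ± 0.70 for Plin4 and 2.54 ± 1.16 for Cidec. The 95% intervals were 0.75 to 5.49, 0.87 to 3.91 and 0.04 to 5.04, and the adjusted p was 0.840 for each of them by limma. This fit also pools the spread of the 4 groups, which differs, so the intervals are approximate. The intervals of the other 6 genes tested included 0. The difference was above 0 for all 9, among them Plin5 and Cidea, which were tested through the OT1 uterus, and for all 7 tested without OT1, as it was for 52.0% and 52.4% of all genes in these fits. After adjustment of the limma p, 0 of the 9 and 0% of all 13653 genes were under 0.05, and 667 genes were under 0.05 unadjusted.

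The tissues differed in which perilipins they expressed. Plin5 and Plin4 were higher in the ovary, Cideb was higher in the uterus, and Plin2 and Plin3 were at close levels in both. With the mean of OC and OT taken in each tissue, and a call at an absolute log2 difference of at least 1 with an adjusted p under 0.05, 2 of the 10 genes were called higher in the ovary and 1 in the uterus. Of all 14557 tested genes, 9.59% were called higher in the ovary and 10.0% in the uterus.

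Plin5 showed the largest difference of the 10 genes, with 16.3 to 25.9 FPKM in the 7 ovaries and at most 7.11 FPKM in a uterus. Plin5 differed by 5.499 ± 0.60 (SE) on the log2 scale, with an adjusted p of 5.43e-06 by limma, and by 6.03 without the OT1 mouse. Its order of group means was OT ovary (20.7 ± 3.54 FPKM, SD, n = 4), OC ovary (18.6 ± 2.03, n = 3), OT uterus (2.03 ± 3.39, n = 4) and OC uterus (0.158 ± 0.138, n = 3). The ovary groups did not differ beyond their spread, nor did the uterus groups. Plin4 was higher in the ovary by 1.80 ± 0.35 (SE) on the log2 scale, with an adjusted p of 0.000777, and by 3.00 in OC mice alone. The smaller value over all mice went with the higher Plin4 levels of OT uteruses. Plin5 and Plin4 are 1797 bases apart and share the strand. The Plin4 promoter and that of the first Plin5 start, printed above, hold TATAA within 32 bases of the start. The window of the second Plin5 start lacks that word, which 22.8% of all promoters hold somewhere.

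Cideb was lower in the ovary, by a log2 difference of -1.40 ± 0.35 (SE) and an adjusted p of 0.00432 by limma, at levels under 1 FPKM in 13 of 14 libraries. With a pseudocount of 1 the difference was -0.53 and the call was lost, and with OC mice only or without OT2 the gene was under the filter. Fitm2 had an adjusted p of 0.0193 with a log2 difference of -0.51 ± 0.17 (SE), under the fold cutoff. Cidea was at 1.22 to 2.86 FPKM in the ovaries and under 0.6 FPKM in each uterus other than OT1. It was not called over all mice (1.78 ± 1.00, SE), but was called with the OC mice alone (3.12) and without the OT1 mouse (2.61). Plin1 was called higher in the ovary with the OC mice alone (1.78, adjusted p 0.0150 by limma), and its difference over all mice was 0.22. Intervals for Plin2 and Plin3 were -0.51 to 0.33 and -0.14 to 0.19 on the log2 scale.

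Since FPKM is a level per length, the perilipins could be compared with each other within a library. Their sum was 148 to 157 FPKM in OC ovaries and 143 to 244 FPKM in OT ovaries, and 64.3 to 79.9 FPKM in OC uteruses and 122 to 644 FPKM in OT uteruses. In OC uteruses, Plin2 held 48.4% to 52.6% of the sum, Plin3 32.7% to 36.0%, Plin4 8.36% to 10.3% and Plin1 3.08% to 8.30%. In OT uteruses Plin1 held 26.9% to 57.4%, more than in any OC uterus. The OC ovary had another make-up, with Plin4 at 34.2% to 37.2%, Plin2 at 25.2% to 25.7% and Plin5 at 10.7% to 12.9%, and Plin4 kept a share of 34.2% to 38.4% in OT ovaries. Among the CIDE genes, Cidec held 81.6% to 99.7% of the sum in every library.

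**Figure D4:**
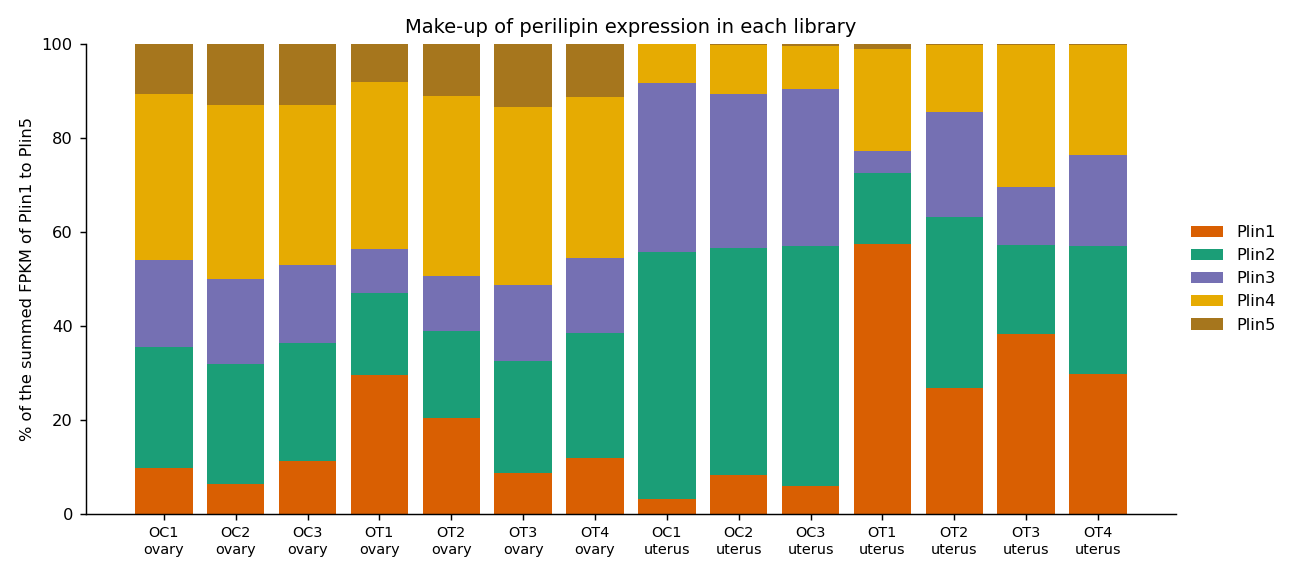
Share of each perilipin in the summed FPKM of Plin1 to Plin5, in percent, as stacked bars for the 14 libraries. Plin2 and Plin3 fill most of each OC uterus bar, Plin1 widens to 26.9% to 57.4% in OT uteruses, Plin4 is the widest part of each ovary bar, and Plin5 takes 8.05% to 13.4% of the ovary bars and at most 1.10% of the uterus bars.

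Ratios between genes differed by tissue and group. Cidec was 0.769 to 1.09 times Plin1 in OC ovaries and 1.63 to 2.66 times in OC uteruses, which did not overlap, and it was 0.762 to 1.62 times in OT ovaries and 1.45 to 2.71 times in OT uteruses. Plin2 was 1.37 to 1.87 times Plin3 in all libraries except the OT1 uterus, where it was 3.35 times. Plin1 was 0.0586 to 0.172 times Plin2 in OC uteruses and 0.740 to 3.79 times in OT uteruses.

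The genes whose pattern was most like that of each lipid droplet gene were found over the 14 libraries, as the smallest root mean square difference of log2 values centred in each tissue, among 13653 genes. For Cidec these were Car3 (0.21), Fabp4 (0.26), Adipoq (0.29), Orm1 and A530016L24Rik, and for Plin1 they were A530016L24Rik (0.32), Car3, Fabp4, Klb and Pnpla3. Car3, Fabp4 and Adipoq are also in the adipocyte list. For Plin4 they were Adora1 (0.32), the hormone-sensitive lipase gene Lipe (0.34), G0s2, Igfbp2 and Gpt. For Plin5 they were Angptl8 (0.37), Cox7a1, Mlxipl, Clstn3 and Me1, and for Bscl2 Sik2 (0.14), Crat, Pla2g16, Acads and Lpin1. Cidea had no close match, with Mmd2 nearest (0.90) and then H2-Q10, Acaa1b, Gm12248 and Nat8l. Among the uteruses Plin5 and Cidea were high in OT1 alone, so likeness to these 2 genes rests largely on that library. Cox7a1, for example, was at 72.9 FPKM in the OT1 uterus and at 1.59 to 5.90 FPKM in the other uteruses. For Cideb they were Cftr (0.25), Fcgr4, H2-Ob, Doc2b and Klf8, at a mean level of Cideb under 1 FPKM. Bscl2 and Cideb each had a high library too. Bscl2 was at 107.2 FPKM in the OT1 uterus and 23.1 to 40.3 FPKM in the other uteruses. Cideb was at 2.29 FPKM in the OT2 uterus and 0.383 to 0.849 FPKM in the others. How far likeness to Bscl2 and Cideb rests on those libraries was not tested. Plin2, Plin3 and Fitm2 had a SD of 0.38, 0.13 and 0.33, under the 0.5 needed for this comparison. Among the 10 genes, Plin1 was closest to Cidec (0.40), and Plin4 and Plin5 were close in the ovary (0.23) and not in the uterus (0.90).

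Around Plin4 and Plin5 on chromosome 17, the differences were gene by gene. Lrg1, a secreted glycoprotein gene 2081 bases from Plin5 on the same strand, was lower in the ovary by a log2 difference of -1.66, opposite in sign to Plin5 and Plin4, and it was called. Hdgfl2, which overlaps Plin4 on the other strand, had 0.81 and was not called. Between OT and OC uteruses, Hdgfl2 had a log2 difference of 0.05 where Plin4 had 2.75, and Plin3, 175.3 kb from the start of Plin5, had 0.10. Ebi3, a cytokine subunit gene 165.0 kb on the other side, was called higher in the OT uterus with 1.44.

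**Figure D5:**
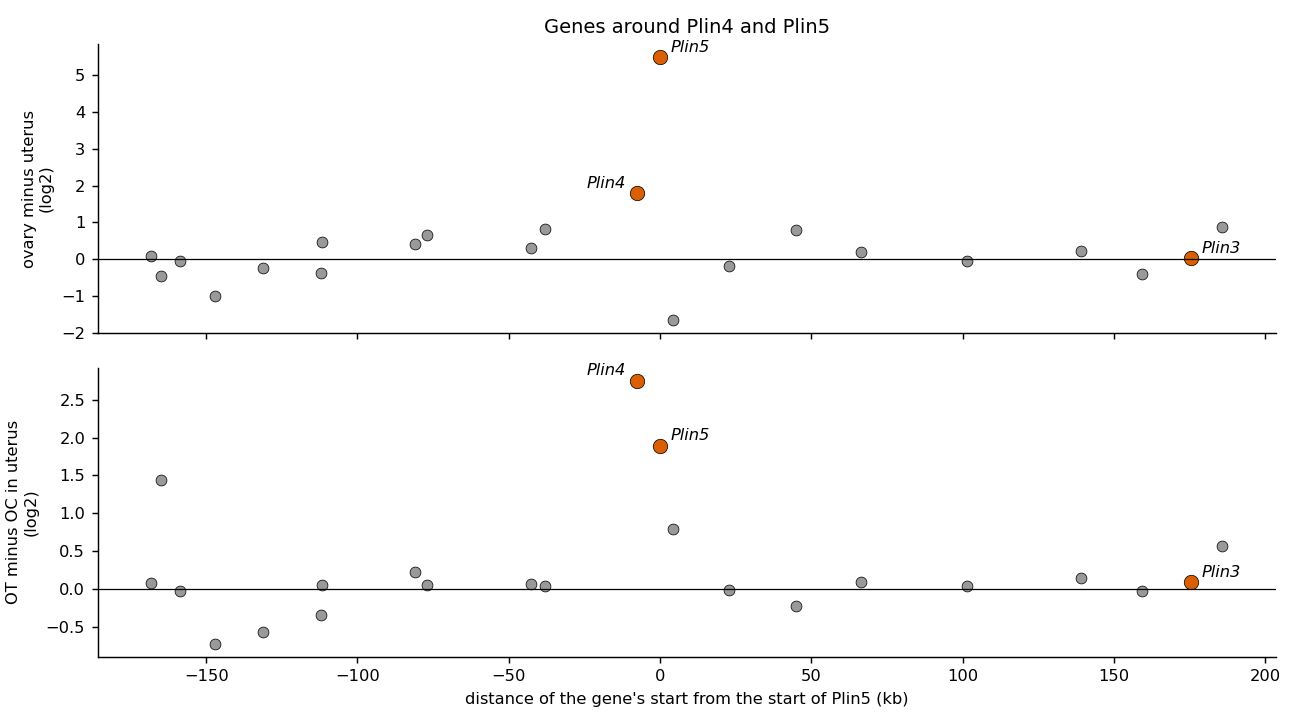
Log2 differences of the genes around Plin5, ovary minus uterus above and OT minus OC in the uterus below, against the distance of each gene's start from that of Plin5 in kb. Perilipin genes are orange, and Plin4 and Plin5 stand above the genes next to them in both panels while Plin3 is near 0. In the lower panel the Plin5 value (1.89 ± 1.16, SE) was not called, and Plin5 was tested there through the OT1 uterus alone.

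A list of 38 other genes of lipid droplets and triglyceride turnover was examined beside the 10. In the uterus 34 of them were tested, with a median log2 difference of 0.22. In OT 9 of these were called higher and 0 lower, against 2.23% and 0.664% of all tested genes. The largest rises were those of Pnpla3, a lipid droplet hydrolase (4.47 ± 0.81, SE), Mogat1, a monoacylglycerol acyltransferase (3.50 ± 0.82), and Acsl1, which activates fatty acids (3.37 ± 0.69). Mogat1 was listed at 0 in the OC1 and OC2 uteruses, so its value depends on the pseudocount, and its mean was 0.483 FPKM without OT1, so it was tested through that library. Without OT1, 33 of the list were tested, 7 were called higher and 0 lower, and the median was 0.14. Over all 14105 genes tested in that fit, 243 were called higher and 52 lower. The others of the 9 called with OT1 were the lipases Pnpla2, Lipe and Mgll, the lipase inhibitor G0s2, and the acyltransferases Dgat1 and Agpat2. In the ovary 35 were tested, with a median of 0.04, and 1 was called higher and 0 lower, against 0.368% and 0.0832% of all tested genes. The gene called was Dgat2, which makes triglycerides (1.07 ± 0.39, SE). Between tissues, 5 were called higher in the ovary and 5 in the uterus. The extremes, named after their values were seen, were Soat1, which makes cholesteryl esters, higher in the ovary by 3.32 ± 0.14 (SE), and Mogat2, with -2.08 ± 0.34.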

How the data were processed

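Per the labels and methods of the study, the authors trimmed reads with Skewer 0.2.2, mapped them to mm10 with STAR 2.5 and made FPKM per gene with Cufflinks 2.2.1. The deposited FPKM of 21853 genes in 14 libraries were used as they stand. Identifiers were matched to GENCODE mouse M21 (all matched), and 3380 genes were at 0 in every library. Cuffdiff, used in the study, needs the reads and was not run. Depth is unknown, and the number of mice limits the precision.

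Genes that averaged 0.5 FPKM or more in the libraries of a fit were tested with limma 3.58.1 in R 4.3.3 (lmFit, eBayes with trend) on log2(FPKM + 0.1), without further scaling. This scale understates changes near 0.1 FPKM. Each tissue was fitted alone for OT against OC, and both together for tissue differences. Steps around the fits used Python 3.11.15 with pandas 2.3.3, numpy 2.4.6 and matplotlib 3.10.9. The limma step was tested on simulated data. In the tissue comparisons both organs came from the same mouse: deviations from group means correlated at 0.07 to 0.16 for OC and 0.11 to 0.25 for OT mice. Organs of different mice gave -0.12 to 0.06 in OC and -0.24 to 0.25 in OT, where the ranges overlap.

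The 10 genes, the list of 38 droplet and triglyceride genes and the 10 lists of cell type markers were chosen with earlier results of these data known. Named genes were all 10, the 5 closest in pattern to each gene with a SD of at least 0.5, and the 3 largest called rises and falls of the 38. Alternatives were a pseudocount of 1, no filter, scaling to the 75th percentile, a replicate block, 1 fit of both tissues, OC mice only and leaving out each mouse. Promoters came from RefSeq (GRCm38.p6).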

Additional observations from a re-analysis of the deposited data

Results flagged for a closer look

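Within groups of 4 libraries, 20 combinations of gene and group were examined on the log2(FPKM + 0.1) scale for a library far from the others, and 2 were found. Chance marks about 1 in 20. Plin2 in the OT3 ovary was 34.1 FPKM, below the other OT ovaries, and its gap to the nearest was 0.928 of the range of the group on that log2 scale, past the 95% critical value of Dixon's test for 4 libraries. Cidea in the OT1 uterus was 70.5 FPKM, with a gap of 0.836 of the range on the same log2 scale, and the same library held 209.9 FPKM of Ucp1. The cause of either value was not tested.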

How the results depend on the processing

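Among the values of single genes under the alternatives, 414 kept their direction and their side of the threshold, 8 newly passed it, 9 no longer did and 10 changed sign. These values include the tissue difference of the OT effect, for which no gene was called with any mouse left out. The 414 is therefore a weak measure of how stable the calls were. In the uterus, Plin1, Plin4 and Cidec were called under every alternative run. The fit with the replicate block, which leaves out OT4, gave 1.37 for ovary Plin1 and 1.02 for uterus Bscl2, both called, and it changed no other call of the 10 genes. Leaving out OT4 with no block gave the same values, with Bscl2 called and Plin1 not. Same-numbered OC and OT libraries come from different mice, so the numbers were not taken to pair them. Their deviations correlated at 0.15 on average in ovaries and 0.03 in uteruses. For unlike numbers the averages were -0.05 and -0.007. Organs of the same mouse averaged 0.10 in OC and 0.17 in OT, so correlations of this size cannot tell paired from unpaired libraries. With the mouse as a random replicate block, no call between tissues changed. Uterus Plin5 and Cidea without OT1, and Cideb between tissues in OC mice only or without OT2, were under the filter and gave no value.

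Changes of sign were seen on leaving out a mouse for ovary Fitm2 (-0.043 to 0.11, below 0 without OC3 or OT1), uterus Cideb (-0.40 to 0.37, below 0 without OT2) and, between tissues, Plin1 (-0.081 to 0.54, below 0 without OC1 or OT2), Plin2 (-0.19 to 0.064, above 0 without OT1) and Plin3 (-0.020 to 0.065, below 0 without OC1 or OT4). In OC mice only, Plin2 (0.085) and Cidec (0.45) changed sign between tissues. None of these was called.

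Genes called higher in the OT ovary were 16 with a pseudocount of 1 and 99 with no filter, and lower 2, 60 and, with the replicate block, 34. Lipid droplet genes called there were 0 with no filter, 2 with the replicate block and 0 in 1 fit of both tissues. In the OT uterus, 202 genes were called higher with a pseudocount of 1, and 57 lower, against 152 with no filter and 238 with the replicate block. Between tissues, 4 lipid droplet genes were higher in the ovary in OC mice only, and 0 were higher in the uterus in OC mice only or with a pseudocount of 1. Leaving out a mouse gave 36 to 104 genes higher and 10 to 33 lower in the OT ovary, 0 to 2 lipid droplet genes called there and 3 to 4 in the uterus, 243 to 416 genes higher and 52 to 189 lower in the OT uterus, and between tissues 2 to 3 lipid droplet genes higher in the ovary and 0 to 1 in the uterus. The causes were not tested.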
